A study of Homo sapiens with 4 samples.

Results

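Each library of this series was made from a human tumour grown in a mouse, and its reads were counted against both genomes, so the tumour and its host can be read apart by species. The comparison described here sets the human RNA of each library beside the mouse RNA of the same library. Of 68886 annotated features (36601 human, 32285 mouse), 16266 pairs were used, those whose human symbol equals the upper-case mouse symbol and is unique in each species. For every library the unique molecular identifiers (UMIs, tags that mark single captured RNA molecules) of each gene were summed over all barcodes, human and mouse apart, and each sum was scaled to the total UMIs of its own species, as counts per 1000000 (CPM). The matched genes held 93.8% to 94.0% of the human UMIs and 92.2% to 93.4% of the mouse UMIs.

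The tumours were grown from PANC-1, an established human line of pancreatic ductal adenocarcinoma, under the skin of nude mice, animals that lack a thymus and so have very few mature T cells. There were 4 treatments with 1 library each: a control, agrimoniin (a plant ellagitannin), erlotinib (an inhibitor of the EGFR kinase) and agrimoniin with erlotinib, called the combination here. The series' design text names cyranin where the sample labels name erlotinib, and the sample labels were followed. Doses, mouse strain, age and the number of animals per library are not given in the sources used here. All 4 tumours share the cell line, the host type and the collagenase digestion into single cells, and droplet capture (10x Chromium) that counts the 3' ends of transcripts. Nothing in the labels says that a library came from more than 1 animal. With 1 library per treatment, library and treatment cannot be told apart, and no treatment was tested. The 4 libraries served as pairs for the comparison of species, so its p-values measure how steady the human to mouse ratio was over tumours that also differ in treatment. Where 4 values follow a gene's name, they are CPM in the order control, agrimoniin, erlotinib, combination.

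A xenograft tumour is built from implanted human cells and from host cells that grow into it. The host supplies fibroblasts, which lay down collagen, macrophages, which clear debris and present antigen, and vessels. Growth factors often work across this border, with the ligand made on one side and the receptor on the other, which a single-species tumour does not show.

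The 4 libraries held 202 to 306 barcodes each (1056 in all, where the protocol aimed at 8000 cells per library), with 2506087 to 3914878 human and 893244 to 1387037 mouse UMIs. Human RNA made up 68.5% of the UMIs in the control, 73.9% in the agrimoniin, 73.8% in the erlotinib and 77.9% in the combination library. Every barcode held RNA of both species, with human shares between 28.2% and 94.1%, so barcodes were not treated as cells of 1 species. In sums of this kind, fewer cells of a type and less RNA per cell cannot be told apart. Mitochondrial genes took 9.44% to 11.4% of human but 3.78% to 4.80% of mouse UMIs. Reads were assigned to species cleanly where this can be checked: C1QA, C1QB and C1QC, the complement subunits made by macrophages, had 21306 UMIs on the mouse genes and 0 on the human genes, which allows a human share of up to 0.0141%. The whole macrophage list had 0.225 to 0.452 human UMIs per 100 mouse UMIs. The reverse check, mouse UMIs per 100 human UMIs of epithelial genes, gave 1.81 to 7.74, with the highest value in the combination library.

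To ask how far the tumour and the host expressed the same genes, 9197 matched genes with at least 10 CPM in all libraries of at least 1 species were tested with edgeR, pairing the species within each library. A gene was called when its adjusted p was under 0.05 and its fold was at least 2. In all, 3097 genes were called higher in human RNA (33.7% of those tested) and 2174 higher in mouse RNA (23.6%), and the median log2 fold of human over mouse was 0.32. These shares are the background for the counts of gene groups below. A gene that entered the test through the species in which it was high could hardly be called the other way, so such counts describe the tested members only. Of the 5271 called genes, 5262 had the same direction in all 4 libraries. Across genes, human and mouse levels within a library had Spearman correlations of 0.361 to 0.396 (Pearson 0.269 to 0.304, on log2 CPM). Libraries compared with each other gave 0.983 to 0.987 among the human profiles and 0.953 to 0.967 among the mouse profiles. These describe 9197 genes that share libraries and are not independent replicates. On these genes the correlations were lower between the species than between libraries. The filter lets in genes high in only 1 species, which lowers the correlation between species. The scale between the species is a choice. TMM factors (edgeR's scaling by trimmed mean ratios) shifted the median fold by −0.28. They gave 2578 genes higher in human and 2557 higher in mouse RNA.

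**Figure D1:**
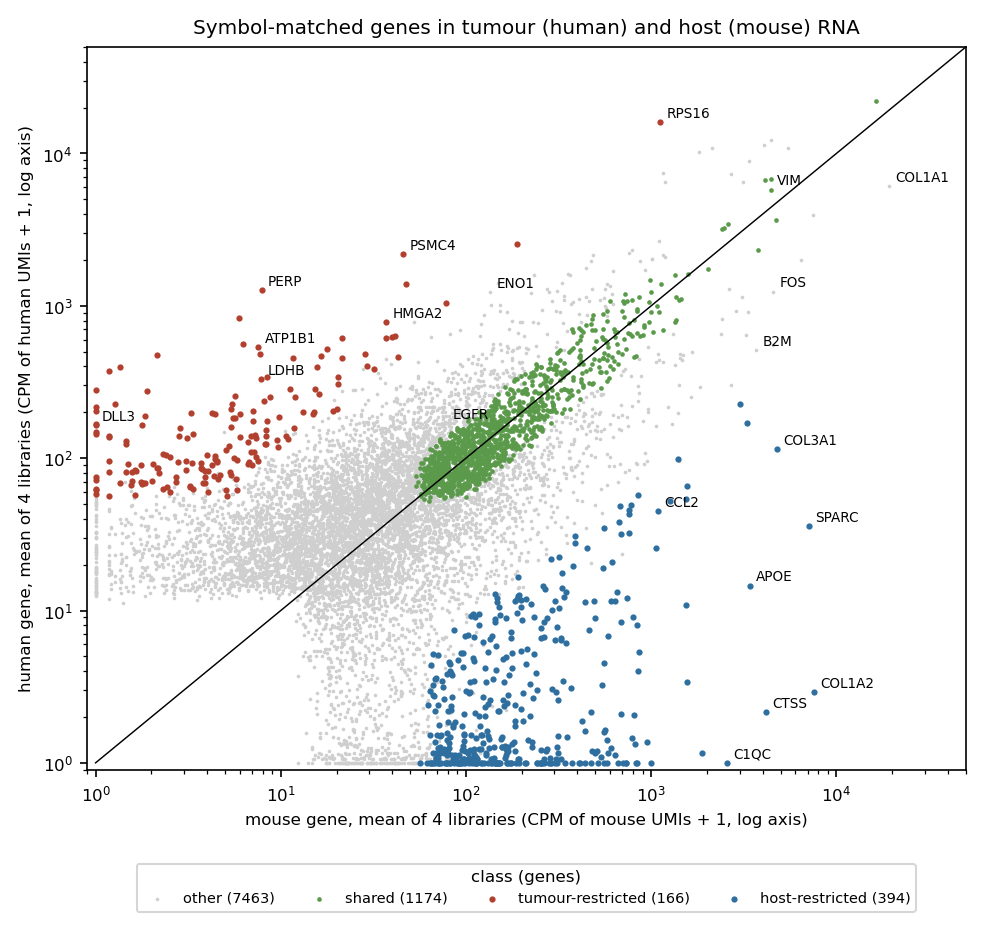
Each point is 1 of the 9197 tested genes, placed by its mean mouse level (x axis) and mean human level (y axis) over the 4 libraries, both in CPM + 1 on log axes, with the line of equal levels drawn. The 166 tumour-restricted genes lie in the upper left, the 394 host-restricted genes in the lower right with COL1A2, CTSS and C1QC at the edge, and the 1174 shared genes along the line.

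Classes were then drawn from levels, as a description without a test. Tumour-restricted genes had at least 50 CPM in every human library and a mouse level at least 10-fold lower in every library, counting the mouse gene as at least 3 UMIs. Host-restricted genes met the same rule with the species exchanged, and shared genes had at least 50 CPM in both species and lay within 2-fold in every library. By these rules 166 of 3431 genes were tumour-restricted (4.84%), 394 of 2979 host-restricted (13.2%) and 1174 of 1941 shared (60.5%). Tumour-restricted genes held 5.04% to 5.52% of the human UMIs, and host-restricted genes 12.9% to 14.0% of the mouse UMIs. Shared genes held 27.8% to 28.1% of the human and 26.1% to 27.0% of the mouse UMIs. JPT2 (10.01-fold) and PAWR (10.08-fold) lay just inside the tumour-restricted border, and CAV2 (9.91-fold) and POLR1B (9.97-fold) just outside. On the host side PELI1 (10.09-fold) and DHRS3 (10.11-fold) lay just inside and GAB2 (9.84-fold) and THBS1 (9.85-fold) just outside.

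Among the tumour-restricted genes, with ribosomal protein and mitochondrial genes left aside, the 15 with the highest level in their lowest library were PSMC4, FBL, PERP, SPINT2, HMGA2, MYO10, EIF3K, SEMA3C, XRCC5, WEE1, MED29, ATP1B1, SPATS2L, PEG10 and MAP3K20. PSMC4, a subunit of the proteasome (GRCh38 chr19:39971005-39981441), stood at 1907, 1987, 2627 and 2233 CPM in human and at 40.0, 48.6, 45.4 and 44.8 CPM in mouse RNA. The groups did not overlap, and the log2 fold was 5.60 (SD of the 4 libraries' ratios 0.20, edgeR adjusted p = 5.8e-14). HMGA2, a chromatin protein of embryonic tissue that many tumours re-express, stood at 711, 835, 787 and 809 CPM against 68.7, 11.2, 12.3 and 52.6 CPM in the mouse, where the control and combination libraries were the higher ones. SPINT2, an inhibitor of membrane serine proteases, reached 730, 792, 907 and 903 CPM with at most 6.49 CPM in the mouse (log2 fold 7.36, edgeR adjusted p = 6.5e-14).

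PERP, a desmosome-associated membrane protein of epithelia, stood at 1029, 1267, 1336 and 1442 CPM in human RNA and at 0, 0.747, 0 and 26.9 CPM in mouse RNA. Its mouse UMIs thus came almost wholly from the combination library, which also had the most mouse UMIs of the epithelial list (49, against 12, 14 and 26 in the control, agrimoniin and erlotinib libraries). ATP1B1, the beta subunit of the sodium pump, followed the same order in the mouse (1.74, 6.72, 4.33 and 13.4 CPM against 602, 513, 459 and 571 CPM in human RNA). The 5 tumour genes with the largest fitted folds, CD70, DSC2, SPOCK1, FOXD1 and DLL3, had 0 mouse UMIs in all libraries, as did 12 of the 166 in all (7.23%). CD70, a ligand of the TNF family, stood at 311, 281, 231 and 286 CPM, at least 85.1-fold above the 3-UMI floor in every library. DSC2, a desmosomal cadherin, stood at 188 to 252 CPM (at least 72.1-fold), and FOXD1, a transcription factor of developing kidney stroma, at 159 to 177 CPM (at least 52.8-fold).

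Among the host-restricted genes, those with the highest level in their lowest library included COL1A2, SPARC, COL3A1, CTSS, APOE, CTSB, C1QC, CST3, CD74, FSTL1, BGN, FN1, IFRD1 and PIM1. These are mostly matrix genes of fibroblasts and lysosomal or antigen-handling genes of macrophages. CTSS, a lysosomal protease of antigen-presenting cells, stood at 2.00, 1.05, 0.255 and 1.27 CPM in human RNA and at 4315, 4306, 4802 and 3155 CPM in mouse RNA (log2 fold −11.87, edgeR adjusted p = 1.5e-14). APOE, a lipid carrier of tissue macrophages, stood at 10.4 to 18.1 CPM in human and at 3016 to 3795 CPM in mouse RNA. C1QC had 1891, 2601, 3169 and 2606 CPM in the mouse and 0 in every human library, at least 1580-fold above the floor. The other 4 genes with the largest fitted folds toward the mouse were C1QA, C1QB, the chemokine CCL4 and the inhibitory Fc receptor FCGR2B. All had 0 human UMIs, as did 85 of the 394 (21.6%). For every ratio between species, expression cannot be told apart from how completely each genome's 3' ends are annotated, and an equal symbol does not prove orthology.

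Leaving ribosomal protein and mitochondrial genes aside, the 15 shared genes with the highest level in their lowest library and species were VIM, ACTG1, CFL1, HSP90AB1, TPT1, HSPA1A, HSP90AA1, HSPA1B, PABPC1, HSP90B1, GNAS, HSPA8, YBX1, S100A6 and TMSB10. Of the mitochondrial genes left aside, MT-CO1, a subunit of cytochrome oxidase, was shared at higher levels than VIM, with 20570 to 24820 CPM in human and 14370 to 18690 CPM in mouse RNA, and MT-CO2 and MT-ATP6 were also shared. VIM, the intermediate filament of mesenchymal cells, stood at 5552, 6173, 5551 and 5880 CPM in human and at 4623, 3977, 3756 and 5413 CPM in mouse RNA (log2 fold 0.40, edgeR adjusted p = 0.0018, under the 2-fold limit). Summed over barcodes, the carcinoma line thus carried as much vimentin RNA, relative to its total, as the host RNA or more in every library. This holds for the sums only, since mouse VIM varied between barcodes within libraries, as given below. TMSB10, an actin-binding peptide, differed least, with 780, 849, 794 and 807 CPM against 800, 848, 797 and 782 CPM (log2 fold 0.00, SD 0.03).

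Cell type markers parted by species. All 22 tested macrophage and monocyte genes were called higher in the mouse and 21 of the list's 24 were host-restricted; their summed level was 13.5 to 19.6 CPM in human and 12100 to 17000 CPM in mouse RNA. Their median log2 fold was −11.16, or −8.38 with genes at 0 human UMIs set to their bound. PTPRC, the pan-leukocyte phosphatase, had 2 human UMIs in the control library and 0 in the other libraries, against 423 to 518 CPM in the mouse. All 14 tested fibroblast genes were also called higher in the mouse (median −7.28, bounded −6.87, 10 host-restricted), among them the proteoglycan DCN, POSTN, PDGFRA and FAP. The list's summed human level, 5830 to 6614 CPM, was almost wholly COL1A1. Of 12 endothelial genes 4 could be tested and were called higher in the mouse, as were 4 of 6 tested pericyte and smooth muscle genes (of 11 listed). No T cell, B cell, mast cell or dendritic cell gene reached the level for testing, and the summed T cell markers stayed at 21.3 to 29.6 mouse CPM.

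Of 14 epithelial genes, 6 reached the level for testing, all through human RNA, and were called higher there; the other 8 were below that level. KRT18 stood at 49.1, 46.6, 63.4 and 52.3 CPM and KRT8 at 36.3, 35.6, 45.2 and 49.1 CPM, both with 0 mouse UMIs in all libraries. EPCAM, an epithelial adhesion protein, stood at 17.7 to 24.8 CPM in human RNA, and its mouse level was 1.49 to 2.88 CPM in 3 libraries and 11.2 CPM in the combination. The human part therefore carried keratins of simple epithelium together with high vimentin. ZEB1, a repressor of epithelial genes, was called higher in human RNA (148, 114, 118 and 112 CPM against 48.7, 77.0, 35.3 and 66.0 CPM, log2 fold 1.14), and this call ended with TMM scaling (0.86) and without the control (0.99) or the erlotinib library (0.96). ZEB2 was host-restricted (4.43 to 9.22 CPM against 512 to 652 CPM), and TWIST1 was seen in the mouse only (64.2 to 98.5 CPM, 0 human UMIs).

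**Figure D2:**
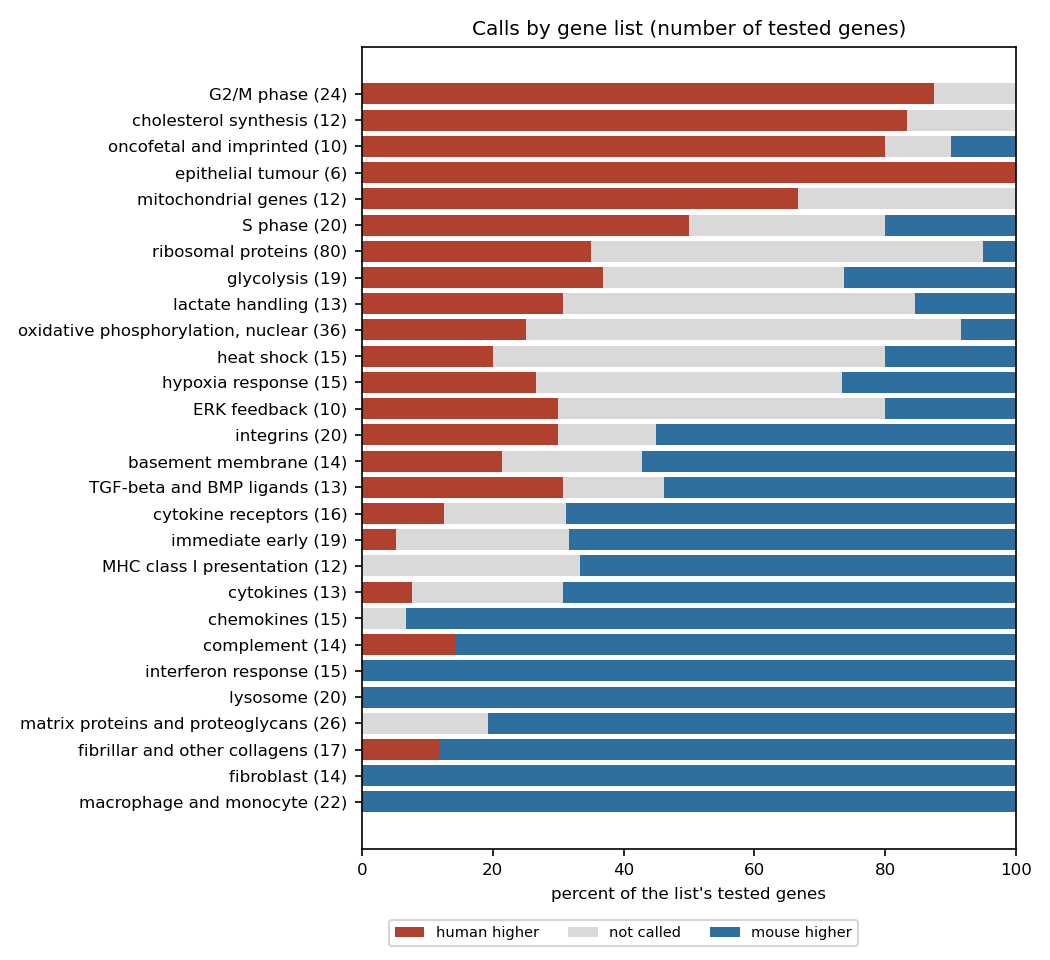
Each bar splits the tested genes of a list (their number in brackets) into those called higher in human RNA, those not called and those called higher in mouse RNA, in percent. Cell division and cholesterol synthesis lie on the human side, macrophage, fibroblast, lysosome and interferon genes wholly on the mouse side, and 9 of 15 heat shock and 24 of 36 nuclear respiratory chain genes are not called.

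The matrix was largely, but not wholly, a host product. Of 17 tested collagens, 15 were called higher in the mouse and 2 in human RNA (median −3.61), and of 26 other matrix proteins 21 were higher in the mouse and 0 in human RNA (median −7.33, bounded −7.27). FN1, fibronectin, stood at 6.13 to 15.2 CPM in human and 1170 to 2142 CPM in mouse RNA, and SPARC, a collagen-binding glycoprotein, at 20.9 to 45.6 against 6355 to 8903 CPM. TGFBI (log2 fold 0.51) and CCN1 (−0.32) were matrix proteins that both species expressed within 2-fold. COL7A1, the anchoring fibril of epithelia, was one of the 2 human collagens, at 200, 259, 299 and 219 CPM against 58.2, 35.9, 38.9 and 58.2 CPM (log2 fold 2.37, edgeR adjusted p = 1.1e-08). COL18A1, whose end fragment is endostatin, was the other (log2 fold 1.66).

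The genes for the 2 chains of type I collagen parted between the species. COL1A1, the alpha-1 chain (GRCh38 chr17:50183289-50201632), stood at 5687, 6461, 5952 and 6422 CPM in human RNA and at 19840, 16400, 20020 and 20830 CPM in mouse RNA (log2 fold −1.65, SD 0.21, edgeR adjusted p = 2.3e-10). COL1A2, the alpha-2 chain with which it is usually wound into one molecule (GRCh38 chr7:94394561-94431232), stood at 2.79, 0.790, 1.53 and 2.53 CPM in human RNA. Its mouse levels were 9469, 5953, 7882 and 6968 CPM (log2 fold −11.97, edgeR adjusted p = 1.3e-15). The tumour thus held alpha-1 RNA in every library with almost no alpha-2 RNA. COL3A1, which fibroblasts make with them, was intermediate, at 101 to 123 CPM in human and 4130 to 5272 CPM in mouse RNA (log2 fold −5.39).

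Human COL1A1 was also set beside mouse Col1a2 within libraries. Barcodes were ranked on their share of mouse Col1a2 and cut into 3 equal groups, a split chosen after the data had been seen. Over the 4 libraries, the highest group held 138 to 280 times as much mouse Col1a1 as the lowest, in CPM. A large difference in this gene was built in by the ranking, since fibroblasts make both chains. Human COL1A1 was 0.967 to 1.13 times as high in the highest group. The source of the human counts was not tested. In the control library, human COL1A1 stood at 5379 CPM in the lowest and 6057 CPM in the highest group of 67 barcodes. In the highest group, mouse VIM lay above human VIM in the control (5995 against 5532 CPM), erlotinib (5378 against 5234 CPM) and combination (6605 against 6164 CPM) libraries. In the agrimoniin library it lay below (5278 against 6347 CPM). Between the lowest and highest groups, mouse VIM differed 1.90-fold to 2.55-fold and human VIM 0.862-fold to 1.10-fold. Human CCL2 was less steady, with ratios from 1.06 to 14.2 beside 2.72 to 10.7 for the mouse gene. The host level also depended on the barcodes taken: in barcodes of at least 75% human UMIs, the log2 fold of COL1A1 was −0.82 and the gene was not called.

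**Figure D3:**
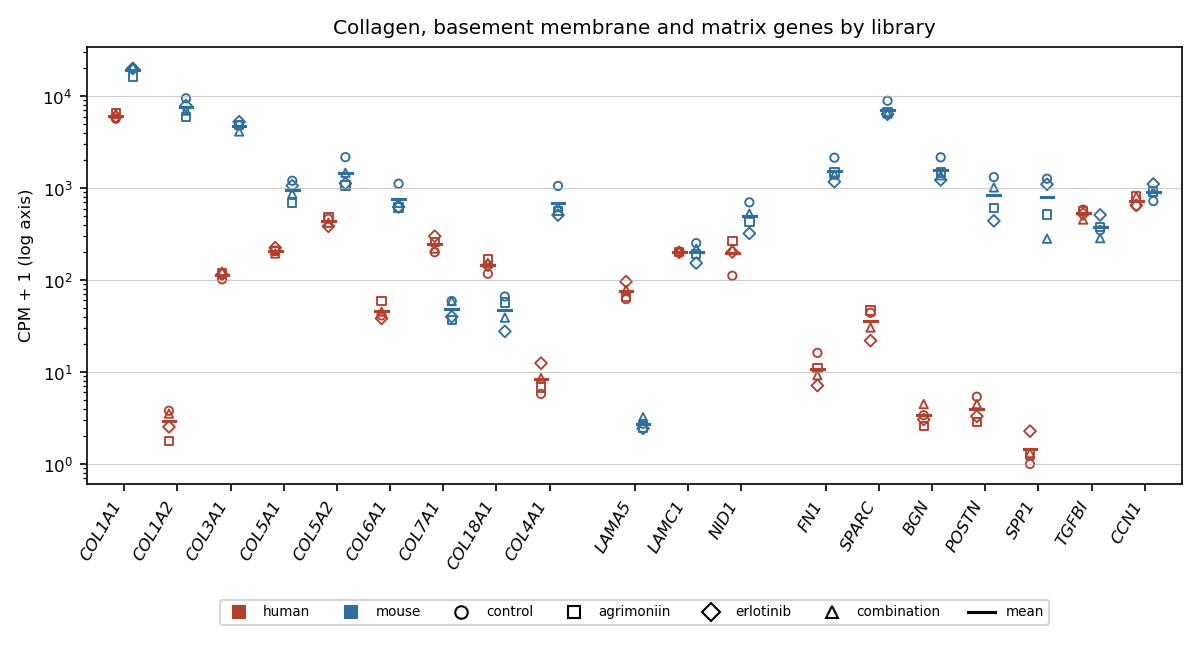
CPM + 1 (log axis) of collagen, basement membrane and matrix genes in each library, human and mouse side by side, with a bar at the mean of the 4 libraries. Human COL1A1 lies at 5687 to 6461 CPM while human COL1A2 stays under 3 CPM, and COL7A1, COL18A1 and LAMA5 are the genes whose human points all lie above all mouse points.

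Basement membrane genes were divided, with 3 of 14 tested genes called higher in human and 8 in mouse RNA (median −1.27). LAMA5, a laminin chain of epithelial basement membranes, was tumour-restricted at 61.0, 64.8, 95.3 and 77.3 CPM against 1.74, 1.49, 1.44 and 2.24 CPM. COL4A1, the main chain of the collagen sheet, was host-restricted (4.79 to 11.5 against 508 to 1055 CPM), and LAMC1, the chain common to most laminins, was shared (198 to 206 against 152 to 251 CPM). In barcodes of at least 75% human UMIs the mouse-higher basement membrane genes numbered 5 in place of 8. Among matrix-modifying enzymes 19 of 25 tested genes were higher in the mouse. The exceptions on the human side were the lysyl hydroxylases PLOD1 (log2 fold 1.20, and 0.92 with TMM, where it was not called) and PLOD2 (490 to 592 against 151 to 170 CPM), which modify collagen inside the cell that makes it.

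Integrins, the receptors for these proteins, showed 6 of 20 tested genes higher in human and 11 higher in mouse RNA. ITGA3, a laminin receptor subunit, was tumour-restricted (57.1 to 74.8 against at most 1.49 CPM). ITGAV, a subunit of fibronectin and latent TGF-beta receptors, stood at 555, 573, 542 and 562 CPM against 165, 134, 148 and 111 CPM (log2 fold 2.00, edgeR adjusted p = 1.1e-09), and ITGA6 was also higher in human RNA. Leukocyte integrins lay on the other side, with ITGAX at 0 human UMIs and ITGB2 at 0.317 to 1.28 against 177 to 221 CPM. ITGB1, the common partner, was shared (999 to 1184 against 581 to 1143 CPM).

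Growth factor ligands and receptors were compared by family. EGFR, the target of erlotinib (GRCh38 chr7:55019021-55211628), stood at 170, 161, 182 and 159 CPM in human and 88.7, 71.0, 59.1 and 91.8 CPM in mouse RNA. It was called higher in human RNA (log2 fold 1.14, edgeR adjusted p = 2.2e-06), a call that ended with TMM scaling (0.86), in barcodes under 75% human UMIs (0.99) and without the erlotinib library (0.98). Of its ligands, EREG (37.5 to 85.8 against 11.2 to 37.4 CPM, not called in barcodes under 75% human UMIs, log2 fold 0.86) and TGFA (10.1 to 17.4 CPM, 0 mouse UMIs) were higher in human RNA. HBEGF was higher in the mouse, at 173, 140, 123 and 137 CPM against 25.5, 31.4, 19.7 and 19 CPM (log2 fold −2.57, edgeR adjusted p = 2.2e-10). Both sides therefore held EGFR RNA and ligand RNA, with different ligands leading.

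PDGF ligands were found on both sides and their receptors on the host side. PDGFC, a ligand of PDGFRA, was higher in human RNA (128, 141, 114 and 147 against 45.2, 23.2, 42.5 and 31.4 CPM, log2 fold 1.89), PDGFB was shared, and PDGFA was higher in the mouse. The receptors were host-restricted: PDGFRA stood at 83.6 to 110 CPM in the mouse and at 0 human UMIs in 3 of 4 libraries, and PDGFRB at 63.5 to 145 against 0.527 to 1.20 CPM. VEGFA, the main vessel growth factor, was higher in the mouse, at 722, 734, 679 and 876 CPM against 193, 157, 147 and 150 CPM (log2 fold −2.22, edgeR adjusted p = 2.4e-10). Its receptors FLT1 and KDR were almost confined to mouse RNA, with 2 human UMIs for FLT1 and 0 for KDR over the 4 libraries.

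Several pairs had a ligand mostly in host RNA and a receptor found in the RNA of both species. IGF1 stood at 63.8 to 126 CPM in the mouse with 0 human UMIs, while its receptor IGF1R stood at 159 to 169 CPM in human and 57.5 to 98.5 CPM in mouse RNA (log2 fold 1.17, and 0.89 with TMM, where it was not called). HGF was host-restricted (52.6 to 77.7 against 0 to 4.85 CPM), and its receptor MET stood at 19.6 to 29.5 against 5.98 to 19.99 CPM and was not called. GAS6 was host-restricted (160 to 236 against 9.49 to 12.3 CPM), and its receptor AXL was higher in the mouse but present in human RNA (79.2 to 102 against 154 to 270 CPM). Over the family of FGF, HGF and IGF ligands, 5 of 8 tested genes were higher in the mouse and 0 in human RNA.

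In the TGF-beta superfamily, 4 of 13 tested ligands and antagonists were called higher in human and 7 in mouse RNA. BMP4, BMP6, BMP7 and the BMP antagonist NOG were the human genes, all at low levels (BMP4 at 18.9 to 25.6 CPM with at most 1.49 CPM in the mouse). The mouse had its own antagonist, GREM1, at 463, 150, 108 and 403 CPM with 0 human UMIs, and the activin chain INHBA at 723, 403, 399 and 701 CPM against at most 1.53 CPM. In both, the control and combination libraries were the higher ones. TGFB2 was shared (166 to 183 against 122 to 195 CPM). Of 11 tested receptors 5 were higher in the mouse, TGFBR2 among them (73.6 to 90.9 against 372 to 489 CPM), and 0 in human RNA.

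Of 5 Notch ligands 2 could be tested, and both were called higher in human RNA. These were DLL3 (147 to 172 CPM, 0 mouse UMIs) and JAG1 (152, 215, 193 and 190 against 116, 84.4, 52.6 and 90.7 CPM). The JAG1 call (log2 fold 1.16) ended with TMM scaling (0.88), without the erlotinib library (0.93) and in barcodes under 75% human UMIs (0.69). The receptors NOTCH1 (4.74 to 4.85 against 31.7 to 51.5 CPM) and NOTCH2 (40.1 to 45.9 against 84.3 to 111 CPM) were higher in the mouse, NOTCH2 not in barcodes under 75% human UMIs (log2 fold −0.79, not called).

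**Figure D4:**
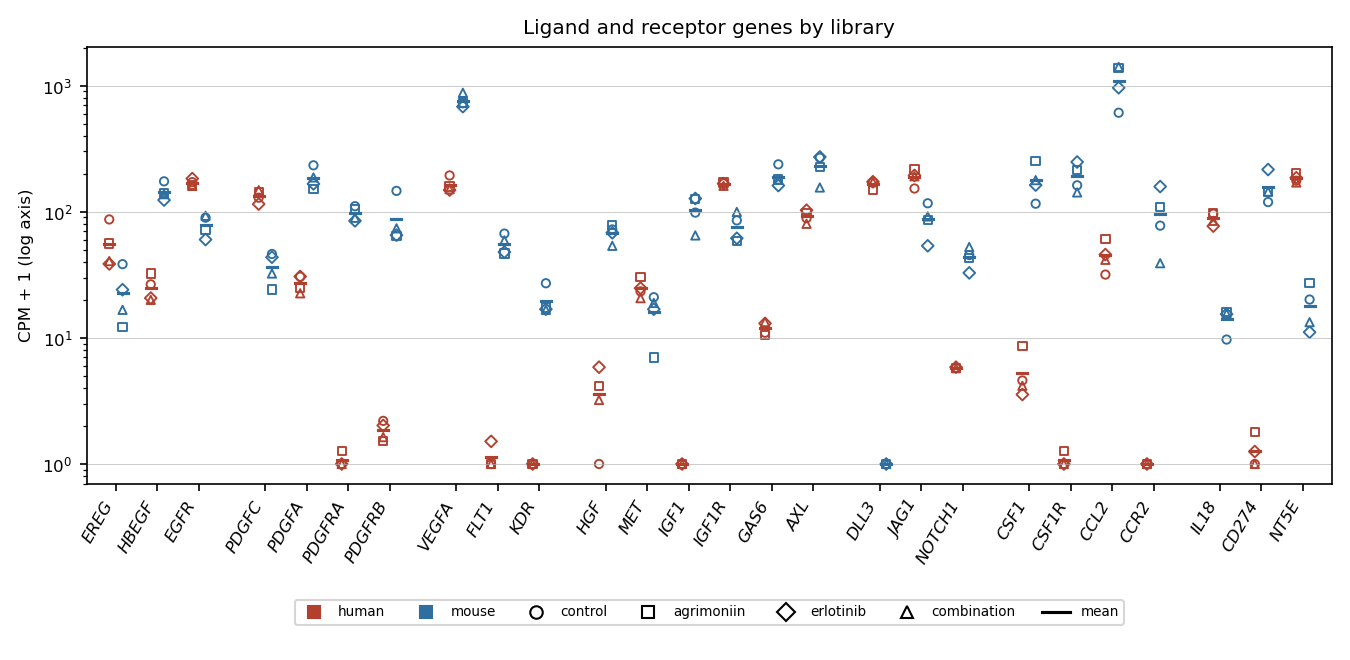
CPM + 1 (log axis) of ligand and receptor genes in each library, human and mouse side by side, with a bar at the mean of the 4 libraries; points at 1 are genes with 0 UMIs. PDGFC, IGF1R, DLL3, IL18 and NT5E lie higher in human RNA, and PDGFRA, IGF1, CSF1R, CCR2 and CD274 are near 0 UMIs in human RNA.

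Signals to leukocytes were mostly host RNA. Of 15 tested chemokines 14 were called higher in the mouse and 0 in human RNA (median −9.90, bounded −6.71), and 11 were host-restricted. CCL2, which draws monocytes, stood at 608, 1384, 959 and 1405 CPM in the mouse and at 30.7, 60.1, 44.7 and 40.5 CPM in human RNA (log2 fold −4.60, edgeR adjusted p = 7.4e-13). Its receptor CCR2 had 0 human UMIs and 38.1 to 157 mouse CPM. CXCL1, a neutrophil attractant, stood at 673 to 1334 against 18.6 to 29.9 CPM. CSF1, the growth factor of macrophages, and its receptor CSF1R were both host-restricted: CSF1 at 115, 250, 162 and 177 against 3.59, 7.64, 2.55 and 3.17 CPM, and CSF1R at 141 to 247 CPM with 1 human UMI over the 4 libraries. The macrophage growth signal and its receptor therefore lay within the same species.

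Of 13 tested cytokines 9 were higher in the mouse, IL1B (482 to 876 CPM, 0 human UMIs) and TNF (83.4 to 311 against 1.20 to 1.84 CPM) among them. IL18, an inflammasome-processed cytokine, was the only one called higher in human RNA, at 95.4, 96.2, 75.9 and 83.6 against 8.69, 14.9, 14.4 and 14.6 CPM (log2 fold 2.72, edgeR adjusted p = 2.4e-09). Among 16 tested cytokine receptors, 2 were higher in human RNA: IL6ST, the signal chain of the IL-6 family (204 to 216 against 74.3 to 93.9 CPM), and IL13RA1 (172 to 186 against 35.8 to 56.5 CPM).

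Genes for recognition by immune cells were host genes with few exceptions. Of 13 tested checkpoint and macrophage recognition genes, 11 were higher in the mouse. CD274, which encodes PD-L1, stood at 118, 142, 215 and 143 CPM in the mouse and at 0, 0.790, 0.255 and 0 CPM in human RNA. CD47, the signal that keeps macrophages from engulfing a cell, was present on both sides but higher in the mouse (347 to 419 against 70.2 to 80.8 CPM). NT5E, the ectoenzyme CD73 that makes adenosine, was the exception, at 175, 200, 185 and 169 CPM in human and 19.1, 26.1, 10.1 and 12.3 CPM in mouse RNA (log2 fold 3.44, edgeR adjusted p = 1.7e-10), while ENTPD1 (CD39), the enzyme before it, was host-restricted. In the complement list, 12 of 14 tested genes were higher in the mouse (median −8.03, bounded −6.30). The 2 higher in human RNA, CD46 and CD55, both encode membrane inhibitors of complement: CD46 stood at 126 to 144 against 0 to 3.36 CPM, and CD55 at 26.8 to 43.4 against 5.21 to 22.4 CPM. The CD55 call ended with TMM scaling (log2 fold 0.85) and without the control library (0.82).

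Antigen presentation and interferon genes had the same side. B2M, the light chain of MHC class I, stood at 570, 500, 533 and 449 CPM in human and 3746, 3758, 4083 and 3192 CPM in mouse RNA (log2 fold −2.85, SD 0.10), and 8 of 12 tested class I genes were higher in the mouse. The classical heavy chains share no symbol between the species and were not compared. CD74, the class II invariant chain, stood at 1264 to 2523 CPM in the mouse and at most 0.399 CPM in human RNA, and 4 of 5 tested class II genes were higher in the mouse. PSMB8, an immunoproteasome subunit, was host-restricted (0.950 to 3.19 against 132 to 188 CPM). All 15 tested interferon response genes were higher in the mouse (median −4.20), although the interferon receptor chain IFNAR1 was shared (109 to 124 against 73.9 to 128 CPM).

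Glycolysis genes split 7 human, 5 mouse and 7 not called out of 19 (median 0.43), near the shares of all tested genes (33.7% and 23.6%). ENO1, enolase, was called higher in human RNA, at 1067, 1176, 1323 and 1383 against 154, 140, 102 and 142 CPM (log2 fold 3.21, edgeR adjusted p = 2.0e-11). HK2, the inducible hexokinase, was higher in the mouse (52.7 to 57.2 against 161 to 288 CPM), as was PGAM1 (log2 fold −1.16, and −0.99 without mitochondrial and ribosomal protein genes in the total, where it was not called), whereas GAPDH and PGK1 were shared. The lactate dehydrogenase subunits differed unequally. LDHA, which favours lactate formation, stood at 711, 776, 860 and 767 against 249, 190, 226 and 252 CPM (log2 fold 1.77, edgeR adjusted p = 2.4e-09). LDHB, which favours the reverse reaction, was tumour-restricted at 319, 319, 350 and 322 against 7.82, 5.23, 8.65 and 5.60 CPM (log2 fold 5.56). Of the lactate carriers, SLC16A1 was higher in human RNA (log2 fold 1.10, not called with TMM at 0.82 nor in barcodes under 75% human UMIs at 0.83), and SLC16A3 was not called (29.8 to 39.9 against 26.7 to 47.0 CPM). BSG, the chaperone of both carriers, was higher in the mouse (142 to 180 against 367 to 464 CPM), but not called in barcodes of at least 75% human UMIs (log2 fold −0.92).

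Of 36 tested nuclear genes of the respiratory chain, 24 were not called, 9 were higher in human and 3 in mouse RNA (median 0.30), and TMM scaling made this 6 and 6. Of 12 tested mitochondrial genes, 8 were higher in human and 0 in mouse RNA (median 1.77). These genes hold most of the mitochondrial UMIs whose shares are given above, so both results rest on the same counts. Cholesterol synthesis lay on the human side, with 10 of 12 tested genes called and 0 in the mouse (median 1.57). SQLE, squalene epoxidase, stood at 126, 134, 109 and 121 against 39.1, 28.4, 18.7 and 50.4 CPM. Of 11 tested lipid handling genes, 10 were higher in the mouse. All 20 tested lysosomal genes were also higher in the mouse (median −3.16), from LAMP2 (222 to 288 against 476 to 628 CPM, log2 fold −1.05, and −0.89 without the erlotinib library, where it was not called) to CTSS. Iron storage and uptake parted: TFRC, the transferrin receptor, stood at 129 to 181 CPM in human and 22.4 to 35.8 CPM in mouse RNA, while 6 of 7 tested iron and haem genes were higher in the mouse.

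RNA of cell division genes was present in both species and mostly higher in the tumour. Of 24 tested G2/M genes, 21 were called higher in human and 0 in mouse RNA (median 2.05), and in barcodes under 75% human UMIs 14 were. TPX2, a spindle assembly factor, stood at 342, 426, 408 and 368 against 19.99, 35.1, 37.5 and 30.2 CPM, and CENPF, a kinetochore protein, at 363, 350, 353 and 298 against 12.2, 26.9, 23.1 and 15.7 CPM. MKI67, the usual marker of cycling cells, was not called, at 134, 140, 162 and 141 CPM in human and 78.2, 125, 80.0 and 139 CPM in mouse RNA, where the agrimoniin and combination libraries were nearly level between species. S phase genes were more divided, with 10 higher in human and 4 in mouse RNA out of 20 (median 1.02). TYMS, thymidylate synthase, was tumour-restricted, at 141, 182, 202 and 216 against 11.3, 5.23, 12.98 and 5.60 CPM. PCNA, the replication clamp, was higher in the mouse (93.4 to 143 against 221 to 275 CPM, log2 fold −1.03), a call that ended without the control library (−0.96) and without mitochondrial and ribosomal protein genes in the total (−0.86).

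Regulators of G1 used different members. CCND1, cyclin D1, stood at 315, 362, 407 and 389 CPM in human and 32.2, 120, 112 and 79.5 CPM in mouse RNA. CCND2 was host-restricted, at 132 to 187 CPM against at most 0.633 CPM. CDKN2A and CDKN2B, the inhibitors of the cyclin D kinases, had 0 human UMIs in all libraries; the mouse genes stood at 4.48 to 8.69 and 5.05 to 25.4 CPM and were too low to be tested. CDKN1A, the p53-induced inhibitor, was higher in the mouse (39.0 to 54.9 against 189 to 416 CPM).

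Of 15 tested heat shock genes 9 were shared, near the 60.5% of all genes at that level, 3 were higher in human and 3 in mouse RNA (median −0.20). HSPA1A, an inducible chaperone, stood at 3475, 2426, 4242 and 2688 CPM in human and 2813, 2144, 2939 and 1790 CPM in mouse RNA, with the erlotinib library highest in both. Immediate early genes were higher in the mouse in 13 of 19 tested cases (median −1.54), FOS at 1281, 1199, 1126 and 1350 against 3632, 5615, 3215 and 5777 CPM. FOSL1, a FOS relative kept up by sustained ERK signalling, was the only one higher in human RNA (137 to 184 against 30.4 to 96.3 CPM, log2 fold 1.51), and its call ended in barcodes under 75% human UMIs (0.98). Among NRF2 targets, NQO1, a quinone reductase, was tumour-restricted (76.1 to 93.3 against at most 2.24 CPM), and HMOX1, haem oxygenase, was higher in the mouse at 228, 232, 348 and 252 against 88.2, 49.5, 40.1 and 24.7 CPM.

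Of 10 tested ERK feedback genes 3 were higher in human and 2 in mouse RNA (median −0.41), near the shares of all tested genes. SPRY4, a Sprouty inhibitor of receptor signalling (119 to 150 against 31.0 to 59.98 CPM), and ETV5, an ERK-induced factor (68.2 to 99.5 against 26.9 to 36.8 CPM), were on the human side. The phosphatases DUSP4 (2.11 to 6.65 against 47.1 to 106 CPM) and DUSP5 (87.1 to 111 against 231 to 414 CPM) were on the mouse side. YAP targets split 5 and 5 out of 13, while YAP1 itself was higher in human RNA (273 to 307 against 40.4 to 86.9 CPM). Hypoxia genes split 4 and 4 out of 15, also near those shares, with the peptide hormone ADM on the human side (128 to 166 against 18.7 to 63.8 CPM) and NDRG1 on the mouse side (20.6 to 41.1 against 280 to 723 CPM). In the cytoskeleton 16 of 23 tested genes were not called. Of the related membrane linkers radixin and moesin, RDX was higher in human RNA (430 to 458 against 96.3 to 115 CPM) and MSN in the mouse (169 to 238 against 391 to 505 CPM). The MSN call ended without mitochondrial and ribosomal protein genes in the total (log2 fold −0.96).

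Oncofetal and imprinted genes were higher in human RNA in 8 of 10 tested cases (of 14 listed, median 4.26), and 5 were tumour-restricted: HMGA1, HMGA2, IGF2BP1, IGF2BP3 and PEG10. IGF2BP3, an RNA-binding protein of embryonic tissue, stood at 201, 241, 231 and 236 against 3.48, 3.74, 5.05 and 5.60 CPM. H19, an imprinted long RNA, stood at 505, 651, 1051 and 924 against 73.0, 56.0, 20.9 and 54.9 CPM. MEG3 was the exception on the mouse side (34.8 to 53.5 against 105 to 221 CPM). Of 14 transcription factors of the pancreatic and epithelial lineage 7 could be tested, and 4 were higher in human, 1 in mouse RNA and 2 were not called. SOX9 (276 to 384 against 45.6 to 58.2 CPM), SOX4, TEAD1 and FOXA2 (32.4 to 43.2 CPM, 0 mouse UMIs) were the human ones and GATA6 (0.317 to 1.58 against 17.9 to 32.1 CPM) the mouse one. The TEAD1 call ended with TMM scaling (log2 fold 0.82), in barcodes under 75% human UMIs (0.83), and without the agrimoniin or the erlotinib library (0.98 each). The myeloid factors SPI1, CEBPA, IRF8 and IKZF1 had 0 human UMIs in all libraries, and 12 of 14 tested host lineage factors were higher in the mouse.

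One stretch of the genome held more tumour-restricted genes than any other. In 2-Mb bins of GRCh38 (GENCODE v29, 34616 of 36601 human genes placed), a split also chosen after the data had been seen, chromosome 19 from 38000001 to 40000000 held 14 of the 166. The next fullest of 444 bins with at least 8 tested genes held 3, and 362 bins held 0. Of the bin's 32 tested genes 28 were called higher in human RNA and 1 in mouse RNA, with a median log2 fold of 3.41. Over all tested genes these shares were 33.7% and 23.6%. All 166 tumour-restricted genes were called higher in human RNA, so the bin's count and median follow in part from how it was picked. Folds above 0 went on past its borders, to TBCB (2.98) and ZFP14 (3.35) on one side and AKT2 (2.91) on the other. The 14 were SPINT2, EIF3K, MRPS12, FBXO17, FBXO27, LRFN1, MED29, RPS16, TIMM50, DLL3, EID2, DYRK1B, FBL and PSMC4. They encode unrelated products, among them a ribosomal protein, a proteasome subunit and a Notch ligand. The class rests on a ratio and does not mean absence from the host. RPS16 stood at 14750 to 16780 CPM in human and at 1074 to 1153 CPM in mouse RNA. As background, PANC-1 is known to carry extra copies of part of chromosome 19q; DNA copy number was not measured here. Ribosomal protein genes in general were mostly not called (48 of 80), with 28 higher in human and 4 in mouse RNA (median 0.69). Counts of such genes are uncertain because they have many near-identical copies.

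**Figure D5:**
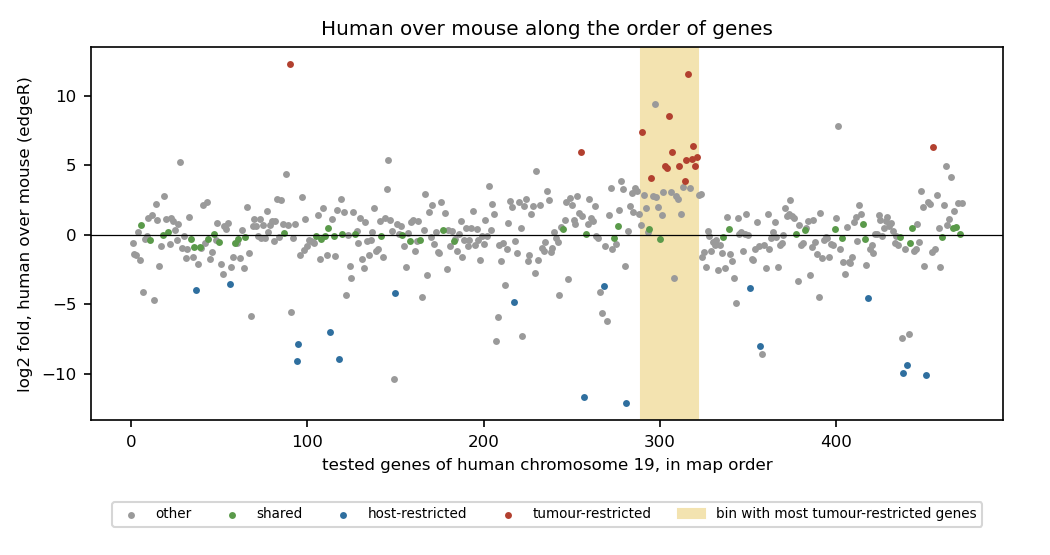
Log2 fold of human over mouse (y axis) for the tested genes of human chromosome 19 in map order (x axis), coloured by class, with the bin holding the most tumour-restricted genes shaded. Within the shaded bin, picked for its tumour-restricted genes, 28 of 32 genes were called higher in human RNA (33.7% of all tested genes were). The tested genes of the bin before it, from POLR2I (2.06) to SIPA1L3 (0.71), also lie above 0. So do the first after it, MAP3K10 (2.89) and AKT2 (2.91), followed by PLD3 (−1.62).

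The ratio between the species varied little between libraries: over the tested genes, its SD between libraries had a median of 0.32 on the log2(CPM + 1) scale and a 95th percentile of 0.84. Of 113 list genes with at least 100 CPM in every library of both species, NID1, a basement membrane linker, varied most. It stood at 110, 264, 201 and 217 CPM in human and 699, 431, 321 and 526 CPM in mouse RNA, so the control library was lowest in the tumour and highest in the host. NID1 was called higher in the mouse (log2 fold −1.30), but not without the control library (−0.89) nor in barcodes of at least 75% human UMIs (0.09). CCN2, a matricellular YAP target, varied in the same manner (148, 281, 148 and 217 against 1383, 776, 557 and 1115 CPM). TPM1, a tropomyosin, was steady in the tumour (789, 900, 913 and 799 CPM) and differed between libraries in the host (803, 323, 372 and 807 CPM). HMOX1 and DUSP6, an ERK phosphatase, were picked from the list genes after their values were seen. For both, the human values lay further from control than the mouse values in each treated library. Relative to control, human HMOX1 was 0.562-fold, 0.455-fold and 0.280-fold in the agrimoniin, erlotinib and combination libraries, and mouse HMOX1 1.02-fold, 1.53-fold and 1.11-fold. Human DUSP6 was 1.79-fold, 0.506-fold and 1.68-fold, and mouse DUSP6 0.968-fold, 0.667-fold and 1.07-fold. The 95% counting intervals of these ratios, which cover counting error only, were 0.460 to 0.685 for human HMOX1 with agrimoniin and 0.440 to 0.582 for human DUSP6 with erlotinib. Intervals of the other ratios, the mouse ones among them, are not given here. All these ratios are of single libraries, and no test between treatments can be made.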

How the data were processed

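Human and mouse RNA were counted in 4 single-cell libraries (1 per treatment). Reads were processed with Cell Ranger against hg38 and mm10, per the submitters' processing notes, and the authors deposited whole-number UMI counts per feature and barcode, with a species prefix on each feature. Cell Ranger's version and the annotation release are not given in the sources used here. No barcode sequence was shared between libraries, and doublets were not removed, since every barcode held both species.

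UMIs were summed over all barcodes of a library for each species and scaled to CPM. Genes at 10 CPM or more in all 4 libraries of at least 1 species were tested with edgeR 4.0.16 (R 4.3.3, quasi-likelihood test, library and species as terms, total UMIs as library size, Benjamini-Hochberg adjustment). Treatment was not a term of its own, since each treatment is 1 library. A median over a list "bounded" sets genes at 0 UMIs in all libraries of a species to their fold over a floor of 3 UMIs per library. Pairing is by library, since the human and mouse RNA of a library come from the same tumour sample. Alternatives were TMM, DESeq2 1.42.0, other totals, other barcodes, human UMIs thinned to the mouse total, no filter, and each library left out. The test was tried on simulated counts.

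Members, lists and thresholds were chosen with earlier results of these data known. The genes named are the 15 of each class with the highest lowest-library level (ribosomal protein and mitochondrial genes left out). Also named are the 5 largest fitted folds in each direction, members of the lists, and CDKN2A, EGFR, LDHA and MKI67. Genes at the class borders, in the chromosome 19 bin and with the most varied ratio were chosen after their values were seen. The ratios of HMOX1 and DUSP6 to control were also chosen that way. At these depths 1 UMI was 0.255 to 0.399 human CPM and 0.721 to 1.12 mouse CPM. Gene positions are from GENCODE v29 on GRCh38. Mouse positions were not used here. Some genes that the rule names are not reported here.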

Additional observations from a re-analysis of the deposited data

Results flagged for a closer look

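The log2 ratio of human over mouse CPM (each with 1 CPM added) was compared between the 4 libraries for each gene named in the report, and 11 genes had 1 library set apart from the other 3. Dixon's rule flags about 1 gene in 20 by chance, and 205 genes were looked at, so about this many flags are what chance gives. Library and treatment cannot be told apart for any of them.

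In the control library, IFRD1 (−3.43), PIM1 (−3.945) and KDR (−4.759) stood apart; for KDR the human gene was at 0 UMIs in every library, so its ratio reflects the mouse level of 26.1 CPM in the control against 15.7 to 16.4 CPM in the others. MAP3K10 (3.229) and CD55 (2.539) also stood apart there; for CD55 the mouse level was 5.21 CPM against 15.1 to 22.4 CPM in the others. In the agrimoniin library the ratios set apart were those of DLL3 (7.21), whose mouse gene had 0 UMIs in every library, and MSN (−0.8185). In the erlotinib library they were those of CCN1 (−0.7757) and AKT2 (3.224), and in the combination library those of TPT1 (−0.5347) and CAV2 (3.785). None of these ratios changed sign between libraries.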

How the results depend on the processing

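Of 205 named and tested genes, NID1 alone had a called fold that changed sign under an alternative (0.086, not called, in barcodes of at least 75% human UMIs), and 18 lost their call under at least 1 of them. Without the filter on low levels 4024 genes were called higher in human and 3346 in mouse RNA, out of 14682 tested. With TMM factors 50.2% of the called genes were higher in human RNA, against 58.8% as reported; leaving mitochondrial and ribosomal protein genes out of the totals shifted folds by 0.17 and gave 64.2% (3566 and 1989 genes). DESeq2 called 3118 and 2172 genes. The pairing of species within a library mattered little: without the replicate block 3083 and 2173 genes were called. Leaving out 1 library at a time gave 3106 to 3176 human-higher, 2198 to 2227 mouse-higher, 176 to 193 tumour-restricted, 406 to 438 host-restricted and 1225 to 1262 shared genes. The classes follow their limits: tumour-restricted genes numbered 79 in barcodes of at least 75% human UMIs, 91 with a minimum of 100 CPM, 36 with a 30-fold and 350 with a 5-fold gap. Host-restricted genes numbered 618 with a minimum of 20 CPM and 224 with 100 CPM. Shared genes numbered 2068 with a minimum of 20 CPM, 529 with 100 CPM and 616 within 1.5-fold. In lists, TMM scaling changed the BCL2 family from 1 human and 4 mouse to 1 and 6, and the cytoskeleton from 4 and 3 to 4 and 9. The mouse totals are the shallower ones, so that 0 mouse UMIs allow up to 2.16 to 3.36 CPM, against 0.766 to 1.20 CPM for 0 human UMIs; these limits cover counting error only.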

Other observations

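Host genes of rare cells came from very few barcodes. The adipocyte hormone Adipoq stood at 127 and 75.5 mouse CPM in the control and agrimoniin libraries and at 0 in the others, and 1 barcode held 100% of its UMIs in the control and 98.0% in the agrimoniin library. The mast cell protease Cpa3 stood at 212 CPM in the agrimoniin library (5 of 297 barcodes) and at 48.3 CPM in the erlotinib library (1 of 306 barcodes), with 0 UMIs in the others. Gzma, a granule protease of killer lymphocytes, stood at 89.5, 58.3, 16.6 and 0 CPM, from 1, 5, 2 and 0 barcodes. The mouse skin genes Krt5 and Krt14 had 7 UMIs each, all in 2 barcodes of the combination library. Spp1, the matrix cytokine osteopontin, was by contrast spread over 131, 108, 159 and 67 barcodes, at 1265, 516, 1099 and 281 CPM.

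Genes with no symbol match stayed outside the comparison. The 5 most abundant on the human side were MT-CYB (6967 to 8135 CPM), the desaturase SCD (885 to 1205 CPM), SUPT5H (725 to 873 CPM), the tubulin TUBB (692 to 868 CPM) and RPS3A (649 to 943 CPM). On the mouse side they were Gm42418 (6913 to 9220 CPM), the class I heavy chains H2-D1 (4303 to 6445 CPM) and H2-K1 (1854 to 2650 CPM), mt-Cytb (3120 to 3876 CPM) and the ferritin light chain Ftl1 (1967 to 2694 CPM).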
